A study of Larimichthys crocea with 4 samples.

Results

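The insulin-like growth factor (IGF) and growth hormone axis of the liver of the large yellow croaker (Larimichthys crocea) was examined in 4 RNA-seq libraries. Its members were the assembled transcripts, called unigenes, whose deposited annotation named an insulin-like growth factor, a growth hormone receptor or an insulin receptor substrate. This gave 56 of 57216 unigenes, after 6 unigenes for the mRNA-binding proteins of similar name had been left out. One library came from fish fasted for 21 d, one from fish under cold stress for 12 h, one from fish under thermal stress for 12 h, and one from untreated, normally fed fish. The temperatures of both stress treatments, their feeding state and their number of fish are not given in the sources used here. The study's methods give several fish for the fasting and normal feeding groups, without saying how their RNA was combined. With 1 library per condition there is no error between replicates, and every test below compares libraries and not conditions. The normal feeding library is the reference of all 3 comparisons, so these are not independent of each other.

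Growth hormone from the pituitary acts on growth hormone receptors (GHR) in the liver, which is the main source of circulating IGF1 in vertebrates. In blood, IGFs are carried by IGF-binding proteins (IGFBP), which hold them back from or bring them to their receptors, and IGFBP1 is known as a hepatic protein that insulin lowers. The IGF1 receptor and the insulin receptor pass their signal on through insulin receptor substrates (IRS), the docking proteins of the phosphoinositide 3-kinase pathway. Bony fishes carry extra copies of many of these genes, among them 2 types of growth hormone receptor.

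Fragments counted on unigenes came to 19.5 M (mega) in the fasting library, 17.0 M under cold stress, 17.9 M under thermal stress and 17.5 M under normal feeding. Markers of hepatocytes took 10.9% of the fragments in the fasting library, 9.55% under cold stress, 9.81% under thermal stress and 12.2% under normal feeding, with serum albumin unmatched among the 8 hepatocyte genes listed. Apolipoprotein A-I alone took 5.55%, 1.93%, 1.39% and 2.24% in that order, and without it the hepatocyte share was 5.40% after fasting, 7.62% under cold stress, 8.42% under thermal stress and 9.93% under normal feeding. Pancreatic digestive enzymes took 9.13% of the fasting library, 5.30% under cold stress, 3.84% under thermal stress and 3.75% under normal feeding, with pancreatic lipase unmatched among 7 genes. The egg proteins vitellogenin and zona pellucida took 1.44% of the fasting library, 0.00367% under cold stress, 0.0271% under thermal stress and 0.00622% under normal feeding. The pancreatic hormones insulin, glucagon and somatostatin were all at 0 fragments in the fasting library, and had 1698 fragments under cold stress, 6497 under thermal stress and 8 under normal feeding. In bulk tissue, fewer cells of a type and less RNA per cell cannot be told apart. The part of these differences in the results below was not tested, except that leaving the digestive enzymes and egg proteins out of the library totals raised every fasting log2 ratio by 0.11 and every stress log2 ratio by at most 0.02.

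The 56 unigenes were grouped by their annotation into 3 unigenes of ligands, 16 of binding proteins, 24 of receptors and 9 of receptor substrates, which made 18 genes. KEGG names set the ligands, the IGF receptors and the growth hormone receptors, and the Swissprot name set TMEM219. Best protein hits set the numbers of binding proteins and substrates and type 2 of the growth hormone receptor. A further 2 unigenes carried the name of an insulin receptor substrate in 1 annotation and that of an unrelated gene in another. The last 2, Unigene33443 and Unigene34182, had a human protein as their best hit, with 81 and 19 fragments under cold stress and 0 in every other library. Among all unigenes with a human best hit, 55 in number, 21 had at least 10 fragments under cold stress and 0 elsewhere, and no such unigene was found for another library, so these 2 were kept apart from the fish genes. Every unigene named for IGFBP1 to IGFBP6 that had a KEGG number carried that of IGFBP3. The numbers of the binding proteins were therefore taken from the best hit. Swissprot gave the same numbers, except that it named Unigene38544 of IGFBP6 as IGFBP3. Unigene12593 of IGFBP3 had no Swissprot name.

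Calls of higher or lower followed the study's criteria, an unadjusted p under 0.05 and at least a 2-fold difference in FPKM (fragments scaled by unigene length and library total), with p from an exact binomial comparison of the fragments in each pair of libraries. After fasting, 10 of 53 member unigenes with a fragment were called higher (18.9%, against 12.8% of all unigenes) and 6 lower (11.3%, against 18.2% of all unigenes). Under cold stress, 16 of 56 were higher (28.6%, against 20.8%) and 11 lower (19.6%, against 13.8%). Without the 2 unigenes with a human best hit, 14 of 54 were higher under cold stress. Unigene25596, which carried conflicting names, was among those called higher after fasting and among those called lower under cold stress. Under thermal stress, 15 of 54 were higher (27.8%, against 9.60%) and 9 lower (16.7%, against 16.1%). Pieces of the same gene are counted separately in these shares. Those higher under thermal stress included 4 pieces of IGF2R and 3 of IGFBP1, and those lower included 4 of GHR type 1. Those higher after fasting included 4 pieces that may be of the same IRS. With DESeq2's size factors the thermal stress split became 16 higher and 6 lower. If a coefficient of variation of 0.4 between fish is assumed in edgeR's exact test, the fasting calls left were 5 higher (Unigene10222 and CL3135.Contig2 of IGFBP2, Unigene25379 of IGF2R, Unigene5655 and Unigene41660 of an IRS) and 1 lower (CL3473.Contig1 of TMEM219). The median log2 ratio of the members was 0.34 after fasting, 0.61 in the cold stress library and 0.25 in the thermal stress library, and that of all unigenes −0.10, 0.18 and −0.19 in the same order. Ratios are relative to library totals. With edgeR's TMM factors every log2 ratio moved by 0.12 in the fasting comparison, by −0.21 in that of cold stress and by 0.15 in that of thermal stress, and the sum of a gene of the axis is reported below with its TMM or size factor value where this shift carries it across the 2-fold limit.

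When fragments were summed over the unigenes of a gene, 1 of 18 genes was higher after fasting and 2 were lower. Under cold stress 3 were higher and 4 lower, and under thermal stress 4 were higher and 3 lower. Over all unigenes summed by KEGG orthology number, 10.1% were called higher and 21.0% lower after fasting, 17.0% and 9.15% under cold stress, and 6.69% and 10.7% under thermal stress. IGFBP1 ranged over the 4 libraries more widely than any other gene with at least 10 fragments in each library, being lowest after fasting and highest under cold stress.

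**Figure D1:**
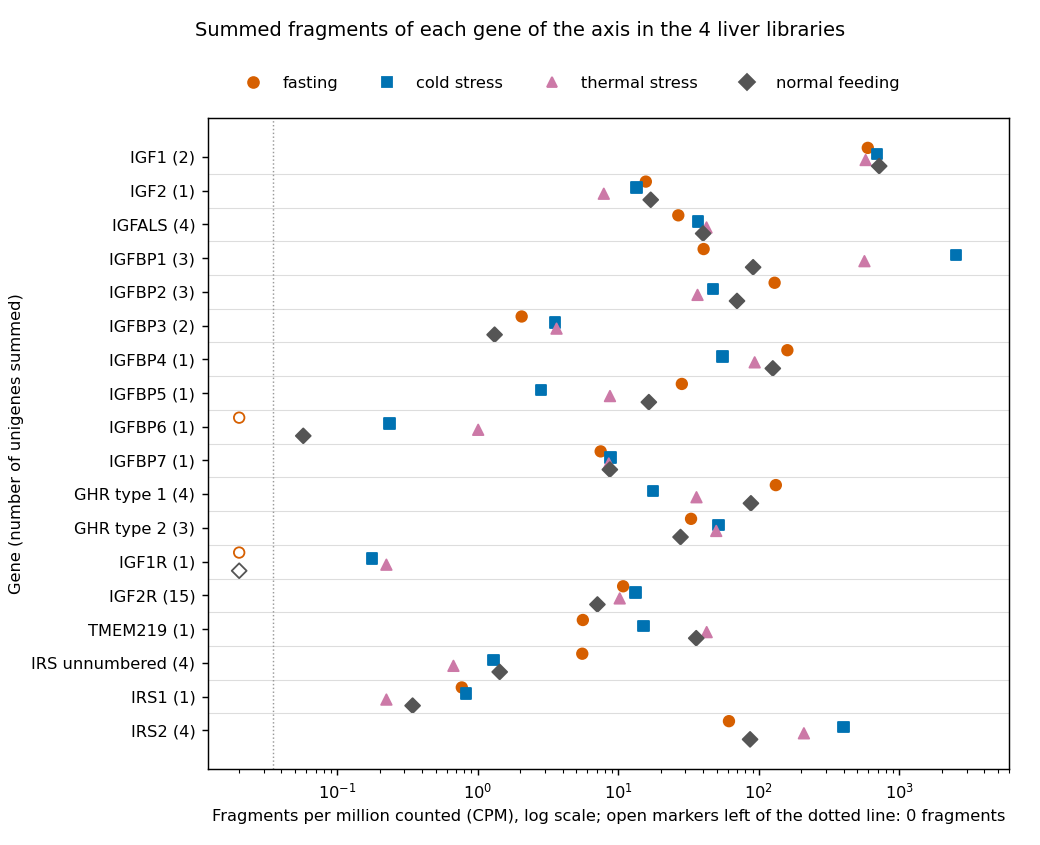
Fragments scaled by library total (CPM, log axis) of each gene, summed over its unigenes, in the fasting, cold stress, thermal stress and normal feeding libraries (1 library each); open markers stand for 0 fragments. IGF1 lies between 575 and 717 CPM in every library, while IGFBP1 spans 40.4 CPM after fasting to 2534 CPM under cold stress.

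IGF1, the growth hormone-dependent ligand, was abundant in every library and differed little. It had 595 CPM (fragments scaled by the library total alone) after fasting, 694 under cold stress, 575 under thermal stress and 717 under normal feeding. Against normal feeding the log2 ratio was −0.27 (95% counting interval −0.31 to −0.23) after fasting, −0.05 (−0.08 to −0.01) under cold stress and −0.32 (−0.36 to −0.28) under thermal stress. None of these reached 2-fold. With 1 library per condition the intervals cover counting error only. They take reads as independent molecules, which PCR reads are not, so even this error may be understated.

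IGF1 was assembled as 2 unigenes that did not move alike. Unigene11225 held 92.0% of its fragments, with an FPKM of 280 after fasting, 327 under cold stress, 278 under thermal stress and 313 under normal feeding. Unigene25617 was lower in each of the 3 libraries, at 11.5, 13.3 and 7.02 FPKM, against 28.3 FPKM under normal feeding, and was called lower in all 3 comparisons. Between 88.7% and 93.1% of the reads placed on Unigene25617 fitted several places in the assembly, against 25.4% to 34.8% for Unigene11225, and how such reads were shared out between the pair is not given.

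IGF2 (Unigene30523), the second ligand, was at a far lower level per length, with an FPKM of 15.4 after fasting, 13.3 under cold stress, 7.75 under thermal stress and 16.7 under normal feeding. It was called only in the thermal stress comparison, where it fell, with 141 fragments against 297 under normal feeding, a log2 ratio of −1.11 (−1.41 to −0.82), which was −0.96 with TMM or DESeq2 scaling. Its log2 ratio after fasting was −0.12 (−0.35 to 0.12), and the sign turned with TMM (0.01) and DESeq2 scaling (0.06).

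**Figure D2:**
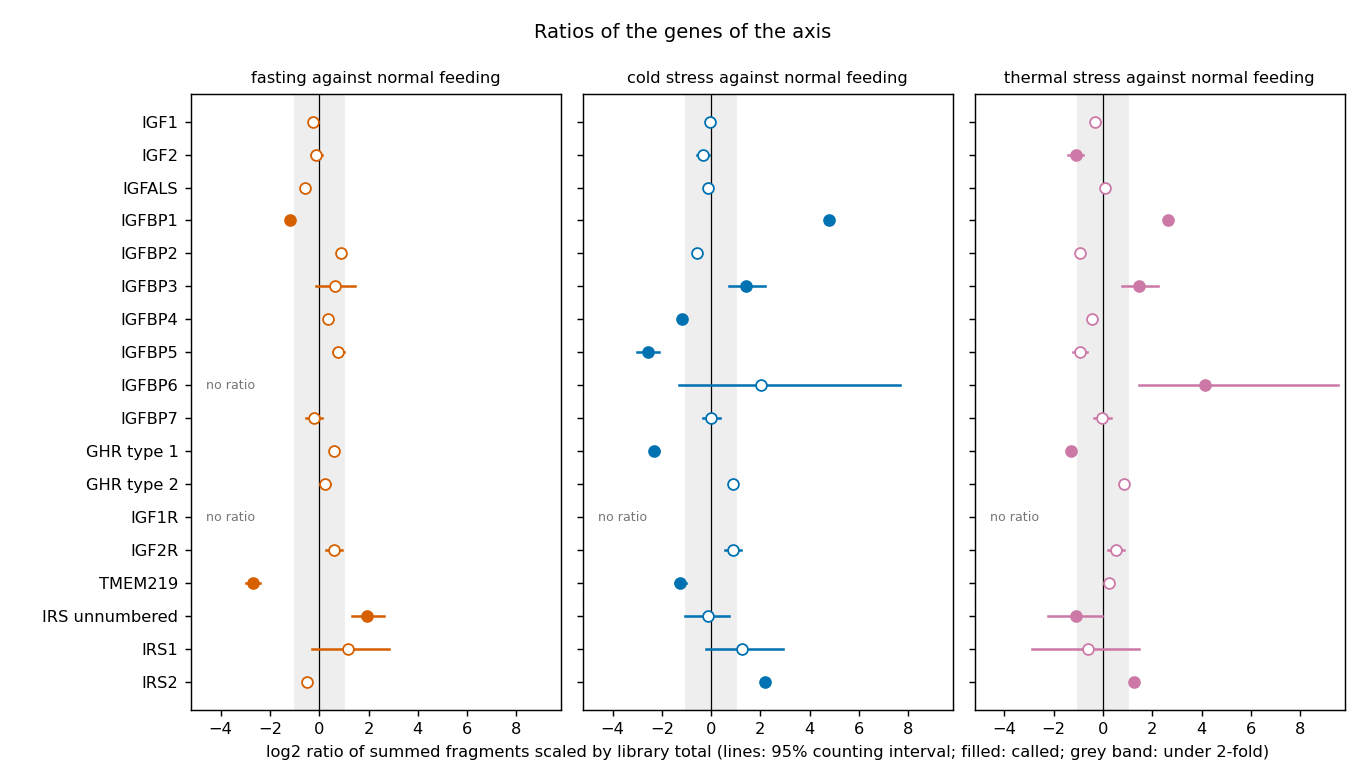
Log2 ratio to normal feeding of the fragments of each gene, scaled by library total, after fasting (left), in cold stress (middle) and in thermal stress (right); lines are 95% counting intervals, filled points are called, and the grey band marks differences under 2-fold. IGFBP1 lies left of the band after fasting (−1.17) and far right of it under cold stress (4.80) and thermal stress (2.63), and GHR type 1 lies left of it under both stresses.

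IGFBP1 fell after fasting and rose under both stresses. It had 789 fragments after fasting, 43126 under cold stress, 10096 under thermal stress and 1590 under normal feeding, or 40.4, 2534, 563 and 90.9 CPM. It was 2.25-fold lower after fasting (log2 −1.17, −1.29 to −1.05), and this became −0.99 with DESeq2's size factors. Under cold stress it was 27.9-fold higher (log2 4.80, 4.73 to 4.87), and under thermal stress 6.20-fold higher (log2 2.63, 2.56 to 2.71).

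Its 3 unigenes agreed in direction under stress. Unigene25940, on which no read fitted several places, had 133 fragments after fasting, 7952 under cold stress, 4593 under thermal stress and 379 under normal feeding. CL1693.Contig1 had 614, 28268, 4665 and 1169 fragments in that order. CL1693.Contig2, a contig of the same assembly cluster, had 42, 6906, 838 and 42, so only this contig was not called after fasting (log2 −0.16, −0.81 to 0.49). The distance between the stresses differed among them: Unigene25940 had a log2 ratio of 4.43 under cold stress and 3.56 under thermal stress, and CL1693.Contig1 one of 4.64 and 1.96. Between 63.5% and 66.4% of the reads on CL1693.Contig1 and 90.3% to 99.8% of those on CL1693.Contig2 fitted several places.

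IGFBP2, another hepatic binding protein, had 129 CPM after fasting, 47.1 under cold stress, 36.6 under thermal stress and 69.8 under normal feeding. Its sum was not called in any comparison, with a log2 ratio of 0.89 (0.79 to 0.99) after fasting, −0.57 (−0.70 to −0.44) under cold stress and −0.93 (−1.07 to −0.79) under thermal stress. The fasting value lay at the limit, being 1.01 with TMM and 1.07 with DESeq2 scaling. Its unigenes differed.

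Unigene10222, whose best hit is an IGFBP2-A-like protein and on which no read fitted several places, rose after fasting. It had 1430 fragments after fasting, 304 under cold stress, 95 under thermal stress and 251 under normal feeding. The log2 ratio was 2.35 (2.16 to 2.55) after fasting, 0.32 in cold stress and −1.44 under thermal stress, so it was highest after fasting and lowest under thermal stress. In the other IGFBP2 cluster, CL3135.Contig1 had 800, 269, 284 and 908 fragments and was lower under both stresses, while CL3135.Contig2 had 295, 228, 276 and 62 fragments and was higher in all 3 comparisons. The reads of this pair mostly fitted several places (77.6% to 98.0%), and their sum had a log2 ratio of 0.02 (−0.11 to 0.14) after fasting, −0.93 in cold stress and −0.83 under thermal stress.

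IGFBP4 and IGFBP5 both fell under cold stress. IGFBP4 (Unigene17794) had 159 CPM after fasting, 55.0 under cold stress, 93.3 under thermal stress and 126 under normal feeding, and was 2.28-fold lower under cold stress (log2 −1.19, −1.30 to −1.08). IGFBP5 (Unigene25806) had 28.3, 2.82, 8.71 and 16.5 CPM in the same order, and was 5.84-fold lower under cold stress (log2 −2.55, −3.02 to −2.10). For both genes the library order was the same, with fasting highest, then normal feeding, thermal stress and cold stress. After fasting (log2 0.34 and 0.78) and under thermal stress (log2 −0.43 and −0.92) both had an exact binomial p under 0.05 but stayed under the 2-fold limit.

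The remaining binding proteins were low. IGFBP3, the main carrier of IGF1 in mammalian blood, had 40 fragments after fasting, 60 under cold stress, 65 under thermal stress and 23 under normal feeding, and rose under both stresses, with a log2 ratio of 1.42 (0.71 to 2.18) under cold stress and 1.46 (0.76 to 2.22) under thermal stress. With Unigene13713 alone, the longer of its 2 unigenes, the cold stress value was 0.45, and Unigene12593 had 1, 32, 19 and 2 fragments. IGFBP6 (Unigene38544), which Swissprot and KEGG name IGFBP3, had 0, 4, 18 and 1 fragments in that order on a unigene of 316 bp. It was called higher under thermal stress, at a ratio of 17.6 whose log2 interval reached from 1.47 to 9.52. IGFBP7 (Unigene3961), a related protein that binds IGFs weakly, had 146, 149, 153 and 152 fragments and was the flattest of the 7 numbered binding proteins, with log2 ratios of −0.22, 0.01 and −0.03.

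The acid-labile subunit (IGFALS), which joins IGF1 and a binding protein into a larger complex in mammals, was represented by 4 contigs of the cluster CL3267, with 521 fragments after fasting, 628 under cold stress, 759 under thermal stress and 701 under normal feeding. Its sum was not called in any comparison. CL3267.Contig4, with 48.0% of the fragments, had 247 fragments after fasting, 293 under cold stress, 323 under thermal stress and 389 under normal feeding and was not called either. The contigs moved in opposite directions under cold stress, where CL3267.Contig2 was called higher (299 fragments, against 90 under normal feeding) and CL3267.Contig3 lower (29 fragments, against 208). In each contig, up to 100% of the reads fitted several places, so only the sum can be read. The KEGG annotation of all 4 names another leucine-rich protein, the regulatory subunit of carboxypeptidase N.

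Set side by side per length, the binding proteins made a pool of 169 summed FPKM after fasting, 1501 under cold stress, 384 under thermal stress and 140 under normal feeding. IGFBP1 made up 13.3% of this pool after fasting, 96.0% under cold stress, 82.2% under thermal stress and 36.1% under normal feeding. After fasting IGFBP2 held 42.9% and IGFBP4 33.0%, against 21.7% and 31.5% under normal feeding. The summed FPKM of both ligands was 307 after fasting, 354 under cold stress, 293 under thermal stress and 358 under normal feeding, so the binding proteins came to 0.549, 4.24, 1.31 and 0.390 per unit of ligand transcript in that order. These ratios are of transcript levels and have no replicate error. Summed FPKM counts a transcript more than once where its unigenes are pieces of it, as may be so for IGF1, IGFBP1, IGFBP2 and IGFBP3. Some of these unigenes may instead be of separate genes, which was not tested.

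**Figure D3:**
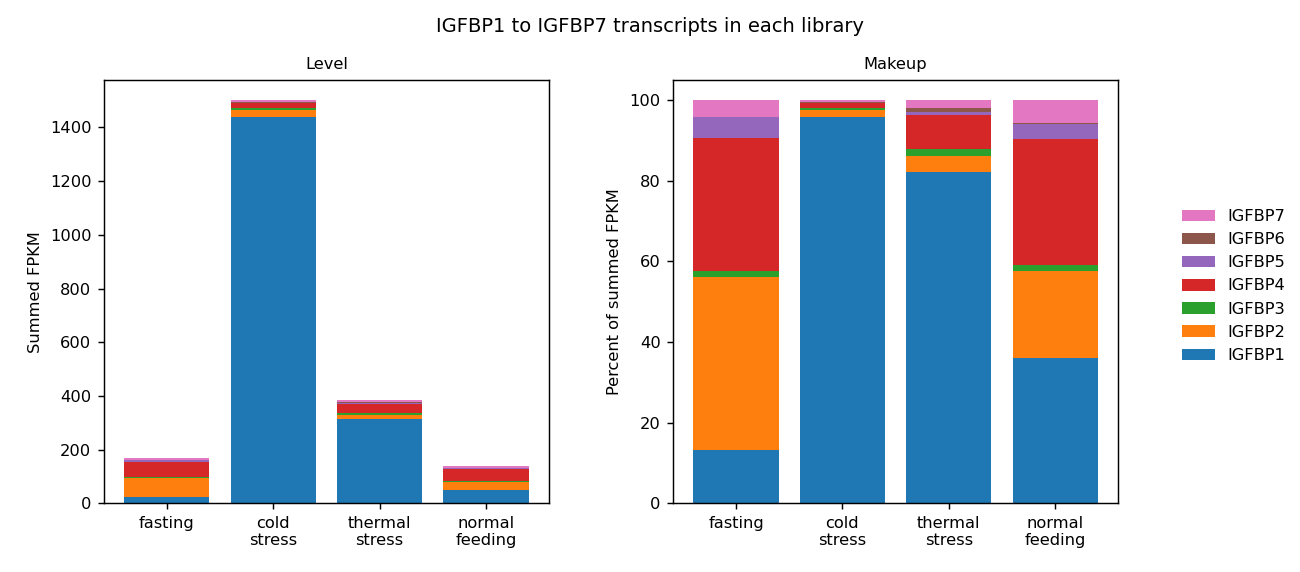
FPKM of IGFBP1 to IGFBP7, summed over unigenes, in the fasting, cold stress, thermal stress and normal feeding libraries, as levels (left) and as percent of the pool (right). The cold stress pool of 1501 FPKM is 96.0% IGFBP1, while the fasting pool of 169 FPKM is 13.3% IGFBP1 and 42.9% IGFBP2.

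The growth hormone receptors went apart under stress. Type 2 was assigned where the best hit named that type. Unigenes whose growth hormone receptor hit carried no type were taken as type 1, so no annotation names them as such. GHR type 1 had 132 CPM after fasting, 17.7 under cold stress, 35.9 under thermal stress and 87.7 under normal feeding. It fell 4.96-fold under cold stress (log2 −2.31, −2.49 to −2.13) and 2.44-fold under thermal stress (log2 −1.29, −1.42 to −1.15), and its log2 ratio after fasting was 0.59 (0.50 to 0.68), under 2-fold. All 4 unigenes of this type were called lower under cold stress and under thermal stress. They may be pieces of the same transcript, so they are not separate evidence. Between 69.3% and 85.5% of the reads on CL245.Contig1 and 58.0% to 71.9% of those on Unigene35716 fitted several places. Unigene19324, with 85.9% of the fragments, had 2214 fragments after fasting, 245 under cold stress, 595 under thermal stress and 1289 under normal feeding.

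GHR type 2 had 32.9 CPM after fasting, 51.5 under cold stress, 49.7 under thermal stress and 27.7 under normal feeding. Its log2 ratio was 0.25 (0.08 to 0.42) after fasting, 0.90 (0.74 to 1.06) under cold stress and 0.84 (0.68 to 1.01) under thermal stress, and none was called. Unigene16430, with 89.8% of the fragments, had 557 fragments after fasting, 790 under cold stress, 805 under thermal stress and 446 under normal feeding. The other 2 unigenes, of the cluster CL62, together had 85, 87, 85 and 38 fragments in that order. Their sum was called higher in all 3 comparisons (log2 1.00, 1.23 and 1.13), and most of their reads fitted several places. In summed FPKM there were 2.72 units of type 1 per unit of type 2 after fasting, 0.269 under cold stress, 0.408 under thermal stress and 2.38 under normal feeding. Summed FPKM counts a transcript more than once where its unigenes are pieces of it. Unigene19324 of type 1 alone had 22.5 FPKM after fasting, 2.86 under cold stress, 6.60 under thermal stress and 14.7 under normal feeding. Unigene16430 of type 2 alone had 12.6, 20.5, 19.9 and 11.3 FPKM in that order. Either way, type 1 was above type 2 in the fasting and normal feeding libraries and below it in both stress libraries.

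Of the IGF receptors, IGF1R was hardly detected, while IGF2R had 7.09 to 13.2 CPM summed over its pieces. IGF1R, which carries the growth signal, was met only as Unigene40258 of 213 bp with 3 fragments under cold stress, 4 under thermal stress and 0 after fasting and under normal feeding, and a count of 0 allows up to 0.154 CPM and 0.171 CPM in those 2 libraries. IGF2R, the cation-independent mannose-6-phosphate receptor that takes up IGF2 and lysosomal enzymes, lay in 15 pieces of 200 to 718 bp. Together they had 211 fragments after fasting, 225 under cold stress, 183 under thermal stress and 124 under normal feeding, with log2 ratios of 0.61 (0.28 to 0.94), 0.90 (0.58 to 1.23) and 0.53 (0.19 to 0.87), none called. The largest piece, CL2299.Contig1, had 49, 34, 49 and 33 fragments in that order. KEGG alone names this piece IGF2R, its best hit being a hypothetical lancelet protein. Unigene11357, the next, had 25, 24, 21 and 30, and neither was called. Of the 15 pieces 2 were called higher after fasting, 5 in cold stress and 4 under thermal stress, and none lower. The pieces have few fragments and may share a transcript, so they are not taken as separate evidence.

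TMEM219, a transmembrane protein annotated as an IGFBP3 receptor, fell after fasting. Its unigene CL3473.Contig1 had 109 fragments after fasting, 257 under cold stress, 761 under thermal stress and 626 under normal feeding. It was 6.41-fold lower after fasting (log2 −2.68, −2.99 to −2.39; exact binomial p = 4.7e-102 between the libraries) and 2.37-fold lower under cold stress (log2 −1.24, −1.46 to −1.03), and its log2 ratio under thermal stress was 0.25. Among the gene sums with a ratio this was the largest fall after fasting, and no other of the 18 genes was called lower in both of these libraries. At most 3.40% of its reads fitted several places.

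Among the receptor substrates, IRS2, a substrate of hepatic insulin signalling in mammals, rose under both stresses. It had 61.2 CPM after fasting, 399 under cold stress, 209 under thermal stress and 86.5 under normal feeding, and was 4.61-fold higher under cold stress (log2 2.20, 2.12 to 2.29) and 2.42-fold higher under thermal stress (log2 1.27, 1.19 to 1.36). After fasting the sum was not called (log2 −0.50, −0.61 to −0.39). Its libraries thus had the same order as those of IGFBP1, with fasting lowest, then normal feeding, thermal stress and cold stress.

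The IRS2 unigenes parted after fasting. Unigene177, with 56.3% of the fragments, fell after fasting (log2 −1.63, −1.84 to −1.43), with 273 fragments after fasting, 4495 under cold stress, 1929 under thermal stress and 757 under normal feeding. CL3362.Contig3, named for the B form by its best hit and for the A form by Swissprot, had 668, 975, 1131 and 562 fragments in that order. Unigene16229 had 206, 1237, 662 and 147, and the fasting log2 ratios of these unigenes were 0.09 and 0.33. Both Unigene16229 (log2 3.11 under cold stress and 2.14 under thermal stress) and Unigene177 (log2 2.61 and 1.31) rose under the stresses. Unigene29963, with 1.47% of the fragments, had 48, 78, 22 and 47 fragments and was called lower under thermal stress (log2 −1.13).

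A set of 4 unigenes shared 1 uncharacterized pufferfish protein as best hit, so that they may be pieces of the same gene, called the IRS without a number here. Their KEGG name, insulin receptor substrate, has no number, as is also so for the IRS2 unigenes. Their Swissprot hits differed, being IRS2-A for Unigene5200, IRS2 for Unigene5655, IRS1-B for Unigene41660 and IRS1 for Unigene44646. Whether they belong to IRS1 or IRS2 was not tested. They had 108 fragments after fasting, 22 under cold stress, 12 under thermal stress and 25 under normal feeding, and rose 3.87-fold after fasting (log2 1.95, 1.31 to 2.64). All 4 pieces were called higher after fasting, from Unigene5200 with 43 fragments (14 under normal feeding) to Unigene44646 with 11 fragments (1 under normal feeding). Their sum was called lower under thermal stress (log2 −1.09, −2.22 to −0.05), which became −0.95 with TMM. IRS1 was met as Unigene24683 of 257 bp with 15, 14, 4 and 6 fragments and was not called in any comparison. Of the unigenes with conflicting names, Unigene25596, which KEGG names as the RNA helicase DDX17, had 265 fragments after fasting, 45 under cold stress, 173 under thermal stress and 108 under normal feeding, and CL1430.Contig3, whose best hit is NEDD8 ultimate buster 1, had 5, 0, 0 and 2.

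**Figure D4:**
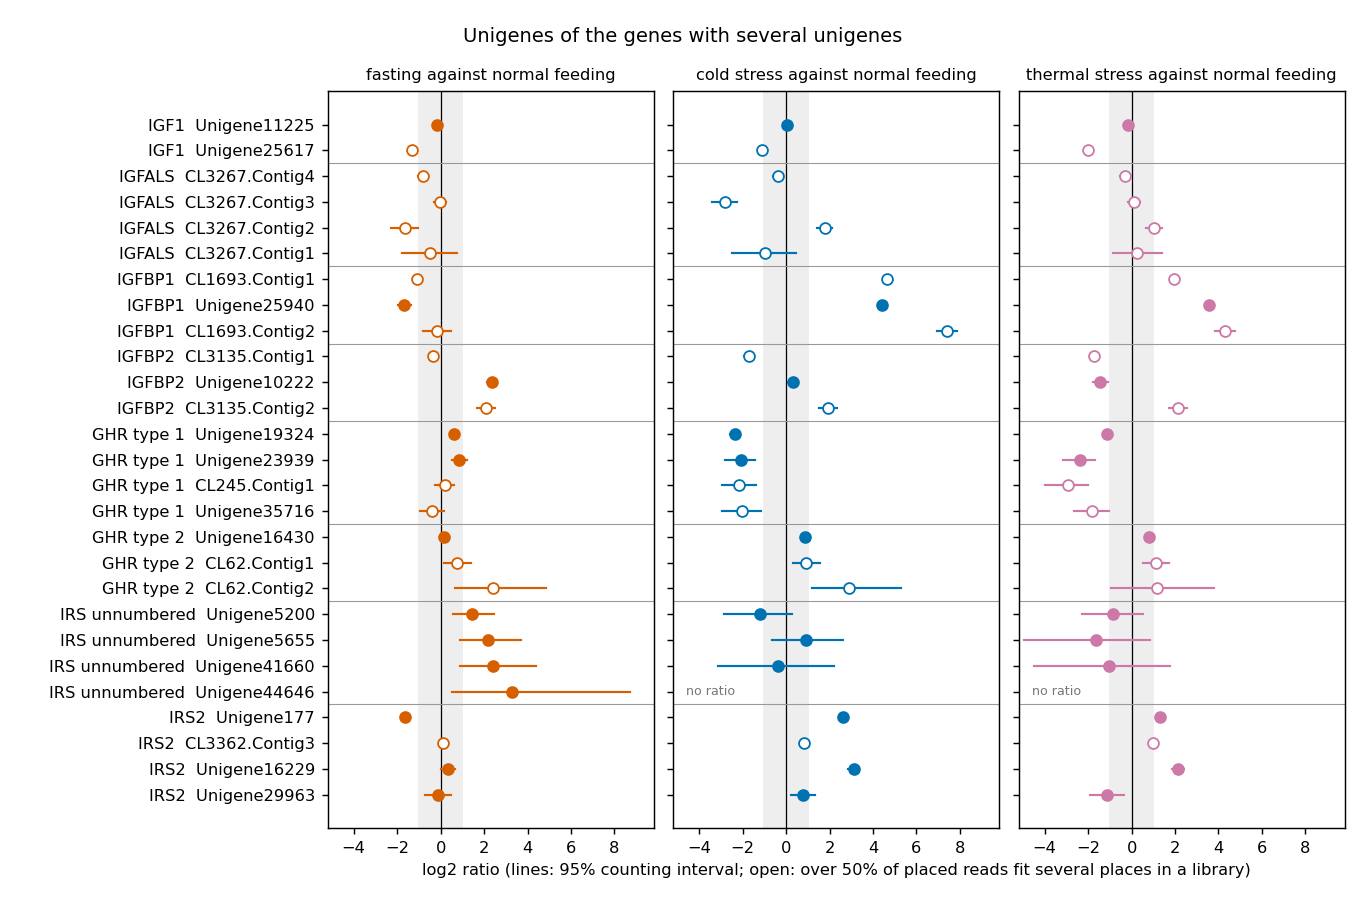
Log2 ratio to normal feeding of each unigene of 8 genes with several unigenes, after fasting (left), in cold stress (middle) and in thermal stress (right); lines are 95% counting intervals, and open points are unigenes on which over 50% of the placed reads fitted several places in at least 1 library. Unigene10222 of IGFBP2 (2.35) and the IRS pieces lie right of the band after fasting, Unigene177 of IRS2 (−1.63) and Unigene25617 of IGF1 (−1.30) lie left of it, and all 4 unigenes of GHR type 1 lie left of it under both stresses.

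The order of the libraries was also read over the whole axis. Of 49 member unigenes with at least 10 fragments in a library, 5 were more than 2-fold above each other library after fasting, against 8.39% of all such unigenes, and 5 were more than 2-fold below each other library, against 10.4%, so that these shares were near those of all unigenes. Those above were Unigene10222 of IGFBP2 and the 4 IRS pieces without a number. Those below were CL1693.Contig1 and Unigene25940 of IGFBP1, CL3267.Contig2 of IGFALS, CL3473.Contig1 of TMEM219 and Unigene177 of IRS2. By gene sums the IRS without a number was the gene so placed above, and IGFBP1 and TMEM219 were those below.

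Genes that act around the axis were taken from a list of 49 genes, of which 43 had a unigene with a fragment. Growth hormone, somatolactin, both pappalysins that cut binding proteins, stanniocalcin 1 and FOXO4 were unmatched. After fasting 3 of the 43 were called higher (6.98%, against 10.1% of all sums by KEGG number) and 8 lower (18.6%, against 21.0%), both shares being near those of all sums. Under cold stress 12 were higher (27.9%, against 17.0%) and 2 lower (4.65%, against 9.15%), and under thermal stress 5 were higher (11.6%, against 6.69%) and 1 lower (2.33%, against 10.7%). The median log2 ratio of the list was −0.04 after fasting, 0.67 in cold stress and 0.20 under thermal stress.

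Of the 8 genes called lower after fasting, 2 were among 9 genes of growth hormone signalling and 5 among 29 genes of insulin and IGF signalling, where 21.0% of all sums were lower. SOCS3, an inhibitor of cytokine receptor signalling, had 430 fragments after fasting, 3168 under cold stress, 3253 under thermal stress and 1910 under normal feeding, and was 4.96-fold lower after fasting (log2 −2.31, −2.46 to −2.16). CISH, a growth hormone-induced inhibitor of the same family, had 156, 2946, 740 and 381 fragments in that order, with a log2 ratio of −1.45 after fasting and 2.99 under cold stress. RHEB, the GTPase that switches mTOR on, had 328, 509, 693 and 1053 fragments and was lower after fasting (log2 −1.84) and under cold stress (log2 −1.01). SHC, an adaptor of the insulin receptor (log2 −1.14), RPS6KB, a kinase downstream of mTOR (log2 −1.09), DDIT4 (log2 −1.97) and TRIB3 (log2 −1.18) also fell after fasting. RPS6KB came under the 2-fold limit with TMM (−0.97) and DESeq2 scaling (−0.91) and SHC with DESeq2 scaling (−0.96), so that with insulin also lost 5 genes of the list were called lower by DESeq2's size factors. The insulin unigene was called lower on 0 fragments, against 4 under normal feeding (exact binomial p = 0.0498), where a count of 0, taken as 3 fragments, gives a fold of at least 1.49.

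The genes called higher after fasting were EIF4EBP1, HTRA1 and STC2. EIF4EBP1, a repressor of translation that mTOR switches off, had 546 fragments after fasting, 275 under cold stress, 249 under thermal stress and 224 under normal feeding (log2 1.13, 0.90 to 1.36). EIF4EBP2, of the same family, had 1006, 2898, 1874 and 1793 fragments in that order. Its log2 ratio after fasting was −0.99 (−1.11 to −0.88), just under the 2-fold limit. That of EIF4EBP3 was 0.15 (−0.06 to 0.37), and neither was called after fasting. HTRA1, a secreted protease that cuts binding proteins, had 46, 10, 42 and 14 fragments (log2 1.56, 0.67 to 2.54). STC2, which in mammals blocks pappalysin, had 38, 0, 3 and 3 fragments, a ratio of 11.3 whose log2 interval reached from 1.85 to 5.84.

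Apart from insulin, the largest differences of the list under stress were in DDIT4, an mTOR inhibitor induced by stress. It had 90 fragments after fasting, 11791 under cold stress, 19609 under thermal stress and 316 under normal feeding, which made it 38.4-fold higher under cold stress and 60.6-fold higher under thermal stress. TRIB3, an inhibitor of the kinase AKT, had 116, 1576, 1981 and 236 fragments and was 6.86-fold and 8.20-fold higher under cold and thermal stress. FOXO1, the transcription factor that insulin signalling keeps out of the nucleus, had 271, 2423, 432 and 240 fragments and was called only under cold stress (10.4-fold higher). Insulin itself had 595 fragments under cold stress and 511 under thermal stress, together with glucagon (940 and 5596 fragments) and somatostatin (163 and 390 fragments), each at 4 fragments or fewer under normal feeding and at 0 after fasting.

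**Figure D5:**
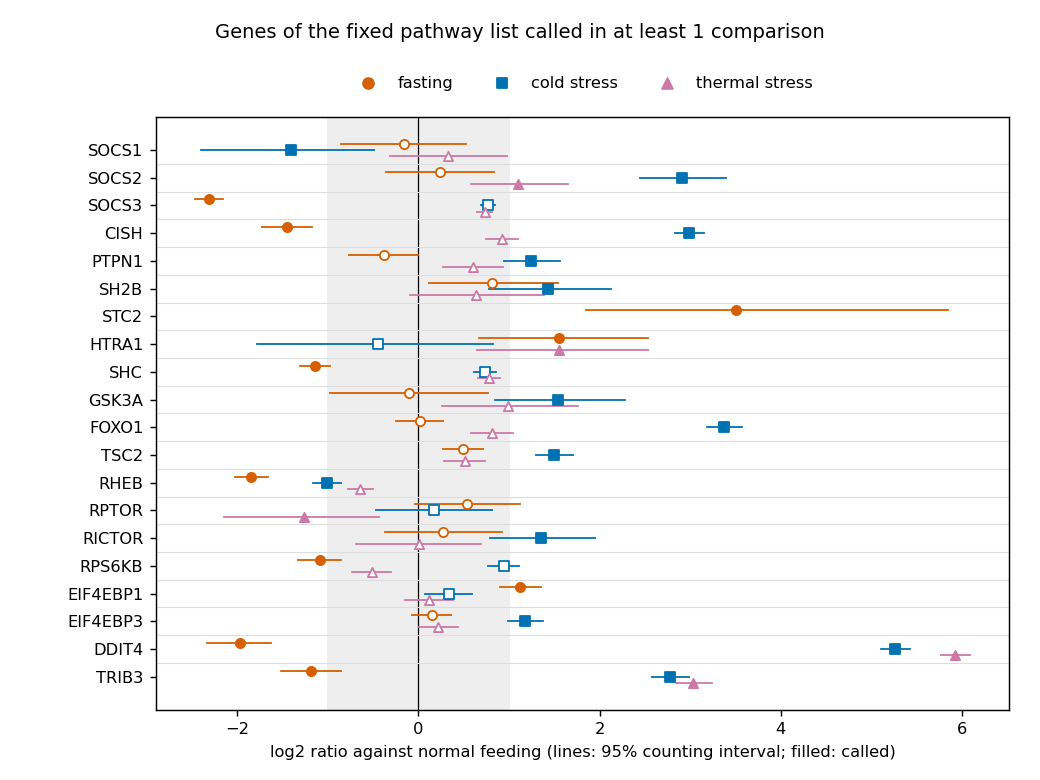
Log2 ratio to normal feeding of the genes of the pathway list called in at least 1 comparison, with insulin left out, after fasting (circles), in cold stress (squares) and in thermal stress (triangles); lines are 95% counting intervals, filled markers are called, and the grey band marks differences under 2-fold. DDIT4 and TRIB3 lie left of the band after fasting and right of it under both stresses, and FOXO1 is filled only in cold stress (log2 3.38).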

How the data were processed

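Liver mRNA was sequenced on an Illumina HiSeq instrument, with 1 library per condition. The authors assembled the reads without a genome (the methods name Trinity, the results a SOAP assembler) and annotated unigenes by BLASTx. The aligner and counter are not given in the sources used here. The authors deposited raw fragment counts per unigene, without normalization, and FPKM values, which could be recomputed from the counts, unigene lengths and totals to within rounding. Coverage tables deposited per library hold read counts, split by whether a read fits 1 or several places, and the percent of each unigene covered. The authors' comparison columns of fold changes and p-values were not used.

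Members, gene grouping and lists were chosen with earlier results of these data known. Named were every gene of the axis, its largest unigene and those with at least 10% of its fragments, and pathway genes called after fasting. FOXO1, EIF4EBP2, EIF4EBP3, the stress values of pathway genes and lesser unigenes were named after their values were seen. Pathway and marker genes were matched by Swissprot best hit. Unigenes were tested by an exact two-sided binomial test. Its check on simulated counts held counting error alone, so it does not bear on variation between fish. Gene sums have 95% Clopper-Pearson intervals for counting error. A count of 0 was set to 3 fragments, and no ratio was formed where both libraries had 3 or fewer. Tools were Python 3.11.15, numpy 2.4.6, pandas 2.3.3, scipy 1.17.1, matplotlib 3.10.9, R 4.3.3, edgeR 4.0.16 and DESeq2 1.42.0. Alternatives were adjusted p-values, TMM and DESeq2 scaling, totals without pancreatic enzymes and egg proteins, a minimum of 10 fragments, 0.5 fragments added, sums over contig clusters, single or uniquely placed unigenes, and edgeR's exact test with an assumed or borrowed variation.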

Additional observations from a re-analysis of the deposited data

How the results depend on the processing

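No paired analysis was possible because each condition had 1 library. Counting error is the only error in the tests, and variation between fish is not measured. With edgeR's exact test at an assumed variation (coefficient 0.4), 5 member unigenes were called higher and 1 lower after fasting (10 and 6 as reported), 7 lower under cold stress (11), and 8 higher and 4 lower under thermal stress (15 and 9), and the pathway list after fasting had 1 higher and 3 lower (3 and 8). With the dispersion of the 3 other libraries as 1 group, a coefficient of variation of 0.658 that includes the stress effects, 0 were called higher and 0 lower after fasting (10 and 6 as reported). Without the 2-fold limit, 25 members had an unadjusted exact binomial p under 0.05 after fasting. At a Benjamini-Hochberg adjusted p of at most 0.001, 4 were higher after fasting and 9 under thermal stress. With DESeq2's size factors 5 genes of the pathway list were lower after fasting. The other counts stayed within 1.5 times of those reported, including the 14 higher under cold stress without the 2 unigenes with a human best hit, a choice made after seeing the data. No gene sum of the axis turned its sign under these alternatives in a comparison in which it was called. The choice of unigenes moved the log2 ratio of IGFBP2 after fasting (0.89 by its sum, −0.34 by its largest unigene and 2.35 by the unigene with uniquely placed reads), that of IGFBP1 under thermal stress (2.63, 1.96 and 3.56) and that of IRS2 after fasting (−0.50, −1.63 and −1.01, the last over its unigenes with mostly uniquely placed reads). For IGFBP2 these values may be of separate genes, as Swissprot names A and B forms among its unigenes. IGFBP3 and IGFBP6, IRS1, IGF1R and the IGF2R pieces are limited by depth.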
